A study of Mus musculus with 16 samples.

Results

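The fat genes of the series were 10 genes typical of white or brown fat cells, read from total lung RNA of mice: Adipoq, Fabp4, Retn, Cidec, Thrsp, Lipe, Pnpla2, Car3, Ucp1 and Cidea. They were listed by symbol, and for each gene the probe set (the array's set of short probes for one transcript) was chosen by its level: of the probe sets with a single gene symbol, that with the highest mean of 16 arrays. All 10 had such a probe set and all 10 were above their array's median on at least 4 arrays, as were 12369 of the 18193 genes with a named probe set. The list was drawn up after fat transcripts had been seen to vary between these arrays, so the levels below are a description.

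The study asked whether pregnancy alters the response of the lung to particles usually held to be inert. All mice were female BALB/c, an inbred strain, with 4 samples and 4 arrays in each of 4 groups: pregnant mice given TiO2, pregnant mice given PBS, non-pregnant mice given TiO2 and non-pregnant mice given PBS. TiO2 was 50 ug of titanium dioxide particles, baked against endotoxin, and was given once into the nose in phosphate-buffered saline (PBS), while the PBS groups received this vehicle alone. Lung RNA was taken 19 h later in every group, and pregnant mice were at day 14 of gestation. The labels of non-pregnant PBS replicate 2 conflict, one calling it pregnant and one not. Replicates are numbered as the samples are listed, and the labels do not say that each sample is a different mouse, so p-values measure the spread between these samples, which may be partly technical. The sources used here do not say how the lungs were trimmed of neighbouring tissue.

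White fat cells store triglyceride in 1 large droplet and release hormones such as adiponectin and, in mice, resistin. Brown fat cells hold many small droplets and many mitochondria, and burn fuel for heat through the uncoupling protein UCP1; in mice such fat lies between the shoulder blades and also within the chest. Adipoq, Fabp4, Retn and Cidec are used by fat cells in general, Ucp1 marks brown and beige cells, and Cidea is much higher in brown than in white fat of mice. Values below are levels on the scale log2(signal + 16) after quantile normalization, where 1 unit is a doubling well above the floor of 4 and the median of an array is 5.94. Levels of different probe sets are not set against each other.

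Promoter sequence of 3 of these genes is shown because the genes were high and low on the same arrays, as described further on. RefSeq (GRCm38.p6) gave promoters, 250 bases before to 50 bases after a gene's start, for 7 of the 10 genes, and Fabp4, Cidea and Car3 are named only. Adipoq lies at chr16:23146286-23146585 (plus strand), Ucp1 at chr8:83290098-83290397 (plus strand) and the second of the Cidec promoters at chr6:113434715-113435014 (minus strand). Capitals mark matches to the motifs searched.
Adipoq: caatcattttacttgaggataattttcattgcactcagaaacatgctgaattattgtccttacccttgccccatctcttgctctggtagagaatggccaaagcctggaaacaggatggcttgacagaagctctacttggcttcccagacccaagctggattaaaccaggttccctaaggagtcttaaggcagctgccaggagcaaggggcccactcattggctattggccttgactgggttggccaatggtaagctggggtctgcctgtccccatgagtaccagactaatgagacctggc
Ucp1: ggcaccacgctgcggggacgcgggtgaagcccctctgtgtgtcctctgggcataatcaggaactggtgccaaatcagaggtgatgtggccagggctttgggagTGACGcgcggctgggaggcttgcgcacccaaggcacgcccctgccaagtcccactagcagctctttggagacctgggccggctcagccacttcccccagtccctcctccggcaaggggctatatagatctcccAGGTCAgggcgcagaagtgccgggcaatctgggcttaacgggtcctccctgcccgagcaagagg
Cidec: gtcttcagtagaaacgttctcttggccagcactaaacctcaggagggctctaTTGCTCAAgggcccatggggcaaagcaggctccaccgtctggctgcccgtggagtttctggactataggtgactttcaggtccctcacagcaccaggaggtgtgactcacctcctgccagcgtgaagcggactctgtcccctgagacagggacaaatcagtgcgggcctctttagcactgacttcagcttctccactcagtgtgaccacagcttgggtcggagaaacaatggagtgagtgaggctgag
In the Ucp1 promoter the capitals are TGACG, the half-site of the cyclic AMP response element, at position −147 from the gene's start, and AGGTCA, a half-site bound by nuclear receptors, at position −14. In the Cidec promoter they are TTGCNNAA, a C/EBP motif, at position −198. No motif searched was found in the Adipoq window.

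Over all 32851 promoters of this length, searched on both strands, TGACG stood in 20.8%, AGGTCA in 16.3% and TTGCNNAA in 10.8%. A Lipe promoter held the E-box CACGTG at position −155, which 7.15% of all promoters held. The 9 promoters of the 7 genes held no copy of the DR1 repeat bound by PPAR (a pair of AGGNCA copies with a single base between, some of which are also AGGTCA; 0.381% of promoters), of TGACGTCA (which contains TGACG; 1.79%) or of TATAAA (13.6%). A match is a match of letters, and no match says only that these letters are not in this window.

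The fat genes were among the genes that differed most from array to array, and Ucp1 varied more than the rest of the list. The range over 16 arrays was 6.34 log2 for Ucp1, an 81.0-fold difference of (signal + 16) between its highest and lowest array. It was 14.3-fold for Thrsp, 14.0-fold for Adipoq, 13.3-fold for Cidea, 9.47-fold for Retn, 8.79-fold for Fabp4 and 5.33-fold for Cidec. Car3 (3.26-fold), Lipe (2.35-fold) and Pnpla2 (1.99-fold) ranged less. The SD over the arrays exceeded that of 82.5% of tested genes for Pnpla2 and of 99.98% for Ucp1, where the median gene had an SD of 0.187 and a range of 0.677 log2. Differences between the 4 group means made up between 21.1% (Pnpla2) and 60.5% (Thrsp) of the variance of a fat gene over the arrays, against 25.4% for the median gene. In bulk RNA such as this, fewer fat cells and less of these RNAs per fat cell cannot be told apart.

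Adipoq encodes adiponectin, a hormone made almost solely by fat cells. Adipoq was at 11.33, 8.65, 11.10 and 10.94 log2 on the pregnant TiO2 arrays, at 11.53, 11.32, 9.62 and 10.95 on the pregnant PBS arrays, at 8.39, 10.17, 9.30 and 7.73 on the non-pregnant TiO2 arrays, and at 10.30, 10.34, 11.15 and 10.49 on the non-pregnant PBS arrays (replicates 1 to 4). All 16 arrays thus carried Adipoq signal above the array median, and the lowest values were those of non-pregnant TiO2 replicates 4 and 1 and pregnant TiO2 replicate 2. Group means were 10.51 ± 1.25 (pregnant TiO2), 10.85 ± 0.86 (pregnant PBS), 8.89 ± 1.06 (non-pregnant TiO2) and 10.57 ± 0.39 (non-pregnant PBS; SD, n = 4 each).

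Fabp4 encodes the lipid carrier of the fat cell cytoplasm, which capillary endothelium and some macrophages, both present in lung, also express. Its levels were 12.88, 10.62, 12.65 and 12.69 after TiO2 in pregnant mice, 12.82, 12.90, 11.69 and 12.53 after PBS in pregnant mice, 10.40, 12.13, 11.18 and 9.88 after TiO2 in non-pregnant mice, and 12.68, 11.91, 13.02 and 12.49 after PBS in non-pregnant mice. The arrays low in Adipoq were again the low ones. Retn, the hormone resistin, which white fat secretes in mice, was at 9.23, 7.44, 8.91 and 8.90 (pregnant TiO2), 8.91, 9.23, 8.17 and 8.20 (pregnant PBS), 7.01, 8.10, 7.41 and 5.99 (non-pregnant TiO2), and 8.49, 8.25, 8.61 and 8.66 (non-pregnant PBS). All 4 non-pregnant TiO2 arrays lay below all 4 non-pregnant PBS arrays for Retn, while the pregnant groups overlapped.

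Cidec, which enlarges lipid droplets and is typical of cells with a single droplet, was at 8.80, 7.01, 8.90 and 8.65 (pregnant TiO2), 9.04, 8.94, 7.59 and 8.39 (pregnant PBS), 7.01, 8.06, 7.23 and 6.63 (non-pregnant TiO2), and 8.17, 7.86, 8.96 and 8.20 (non-pregnant PBS). One non-pregnant TiO2 array, replicate 2, reached into the range of the non-pregnant PBS arrays. Thrsp, a regulator of fatty acid synthesis that lipogenic tissues express, was at 11.87, 9.62, 11.29 and 10.92 (pregnant TiO2), 11.50, 11.60, 10.02 and 11.58 (pregnant PBS), 8.63, 10.14, 9.04 and 8.04 (non-pregnant TiO2), and 11.84, 10.24, 11.16 and 10.57 (non-pregnant PBS). Its 4 non-pregnant TiO2 values lay below its 4 non-pregnant PBS values, by a margin of 10.14 against 10.24 at the nearest pair.

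Lipe and Pnpla2, the hormone-sensitive and the adipose triglyceride lipases that release stored fatty acids, varied little by comparison. Lipe was at 8.89, 8.41, 9.21 and 9.12 (pregnant TiO2), 9.55, 9.34, 8.62 and 8.98 (pregnant PBS), 8.32, 8.50, 8.59 and 8.40 (non-pregnant TiO2), and 9.09, 8.76, 9.04 and 8.83 (non-pregnant PBS). Pnpla2, which many tissues express, ran between 10.31 and 11.30 over all arrays, and its non-pregnant groups overlapped almost fully, at 10.32 to 10.79 after TiO2 and 10.31 to 10.82 after PBS. Car3, a carbonic anhydrase abundant in fat and also in slow skeletal muscle and liver, ran between 11.29 (pregnant TiO2 replicate 2) and 12.99 (pregnant PBS replicate 2). That lowest Car3 array was also lowest in fast skeletal muscle and squamous epithelium genes, as described below, and was low in Adipoq. It lay 0.64 log2 below the line of Car3 on Adipoq (a residual of −0.64). Whether muscle had a part in this was not tested, and no list of slow muscle genes was read.

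**Figure D1:**
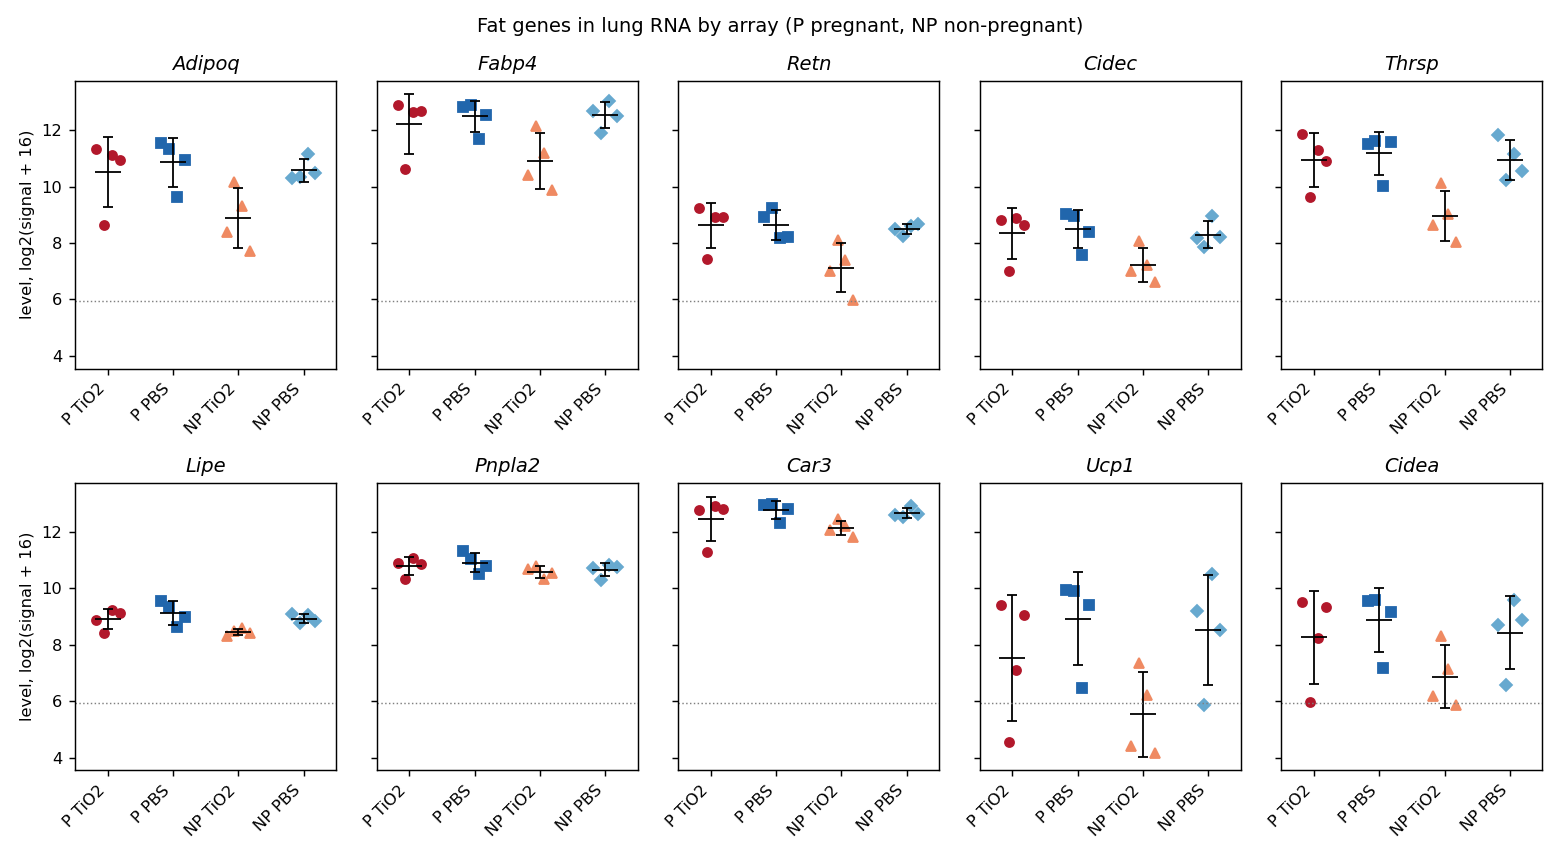
Level of each of the 10 fat genes, log2(signal + 16), on each array, with groups along the x axis (P pregnant, NP non-pregnant); bars are the group mean ± SD (n = 4) and the dotted line is the array median of 5.94. The non-pregnant TiO2 group has the lowest mean for all 10 genes, and for Ucp1 and Cidea every group spreads widely; Pnpla2 ranges only between 10.31 and 11.30.

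Ucp1, the heat-producing uncoupling protein, was clearly present in most of these lung samples and near the floor in others. Ucp1 was at 9.40, 4.55, 7.10 and 9.05 log2 after TiO2 in pregnant mice, at 9.93, 9.91, 6.46 and 9.41 after PBS in pregnant mice, at 4.41, 7.34, 6.20 and 4.15 after TiO2 in non-pregnant mice, and at 9.20, 5.87, 10.49 and 8.54 after PBS in non-pregnant mice. It was above the array median on 12 of 16 arrays, and the other 4 were pregnant TiO2 replicate 2, non-pregnant TiO2 replicates 1 and 4 and non-pregnant PBS replicate 2. Every group therefore held arrays that differed by more than 3 log2 in Ucp1: the group SD was 2.23 (pregnant TiO2), 1.66 (pregnant PBS), 1.51 (non-pregnant TiO2) and 1.95 (non-pregnant PBS; n = 4 each).

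Cidea, a lipid droplet protein and regulator of energy use that is enriched in brown fat of mice, was above the array median on 15 of 16 arrays. It was at 9.52, 5.95, 8.23 and 9.35 (pregnant TiO2), 9.56, 9.59, 7.18 and 9.17 (pregnant PBS), 6.18, 8.32, 7.12 and 5.85 (non-pregnant TiO2), and 8.70, 6.57, 9.57 and 8.87 (non-pregnant PBS). The order of arrays was close to that of Ucp1, and of all tested genes Cidea had the highest correlation with Ucp1 over the 16 arrays.

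Ucp1 and Cidea, the brown fat genes of the 10, followed Adipoq over the arrays. Ucp1 and Adipoq correlated with Pearson's r = 0.899 (two-sided permutation p = 1e-05, the smallest that 100000 resamples can give; adjusted p = 1.5e-05 over the 9 pairs of Adipoq with another fat gene) and Spearman's rho = 0.874 (permutation p = 3e-05; n = 16 arrays). With group means subtracted r was 0.854 (adjusted permutation p = 0.000103), and without the 2 arrays farthest from the median of Adipoq, non-pregnant TiO2 replicates 4 and 1, it was 0.843 (permutation p = 0.00024, n = 14). Since the genes were chosen as fat genes known to vary here, these p-values describe the list and add no support to it. No labelled batch was available within which to repeat the relation.

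For the other 8 fat genes r with Adipoq was 0.978 (Cidec), 0.976 (Fabp4), 0.948 (Retn), 0.926 (Thrsp), 0.910 (Car3), 0.909 (Cidea), 0.866 (Lipe) and 0.709 (Pnpla2), with adjusted permutation p between 1.5e-05 and 0.00185. Spearman's rho ran between 0.812 (Pnpla2, adjusted permutation p = 0.00027) and 0.965 (Cidec, adjusted permutation p = 1.8e-05). Ranked by r with Adipoq among the 12368 other tested genes, Cidec was the first, Fabp4 number 2, Retn 4, Thrsp 9, Car3 17, Cidea 18, Ucp1 21, Lipe 41 and Pnpla2 235. All points share the arrays' RNA, so a single difference in tissue content between samples enters every pair.

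Per unit of Adipoq, Ucp1 and Cidea varied most among the other 9 fat genes. The slope of the fitted line over 16 arrays was 1.66 log2 of Ucp1 and 1.10 log2 of Cidea for each log2 of Adipoq, and 0.95 for Thrsp, 0.84 for Fabp4, 0.72 for Retn, 0.67 for Cidec, 0.37 for Car3, 0.27 for Lipe and 0.17 for Pnpla2. The 7 tested brown fat selective genes outside the 10 had slopes of 0.55 (Otop1), 0.48 (Elovl3), 0.44 (Slc27a2), 0.27 (S100b), 0.17 (Dio2), 0.12 (Acot11) and −0.06 (Prdm16). Signals near the floor compress differences, so the slopes of probe sets of unlike brightness are not strictly comparable. Points also scattered more about the line for Ucp1 (residual SD 0.972) and Cidea (0.606) than for Cidec (0.170) or Fabp4 (0.224).

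Arrays with the same Adipoq level could differ widely in Ucp1. Of the 120 pairs of arrays, 4 were within 0.1 log2 of each other in Adipoq. In the pair of non-pregnant PBS replicates 2 and 1, with Adipoq at 10.34 and 10.30, Ucp1 was 5.87 in replicate 2 and 9.20 in replicate 1, a difference of −3.33. Cidea differed by −2.13 in the same direction and Thrsp by −1.60, whereas Fabp4 differed by −0.77, Cidec by −0.31, Retn by −0.24 and Car3 by −0.05. In the pair of pregnant TiO2 replicate 3 and non-pregnant PBS replicate 3, with Adipoq at 11.10 and 11.15, Ucp1 was 7.10 on the pregnant and 10.49 on the non-pregnant array (−3.40) and Cidea differed by −1.34, while Cidec (−0.06), Thrsp (0.13), Retn (0.30) and Fabp4 (−0.37) differed less. Ucp1 and Cidea were thus lower on non-pregnant PBS replicate 2 and pregnant TiO2 replicate 3 than on the array that shared the Adipoq level of each. In the other 2 pairs Ucp1 differed by −0.51 (pregnant TiO2 replicate 1 and pregnant PBS replicate 2) and −0.36 (pregnant TiO2 replicate 4 and pregnant PBS replicate 4), and Cidea by −0.07 and 0.17.

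Measured from the line on Adipoq, Ucp1 lay at −2.02 on pregnant TiO2 replicate 3 and at −1.98 on non-pregnant PBS replicate 2, and Cidea at −0.87 and −1.69 on the same arrays. Ucp1 lay at 1.41 and 1.30 above the line on non-pregnant PBS replicates 1 and 3. The non-pregnant PBS arrays thus lay on both sides of the line, while the other pregnant TiO2 arrays lay between −0.49 and 0.20. Non-pregnant PBS replicate 2 is also the array whose labels conflict, and it had the lowest deposited signal (trimmed mean 137, against up to 263 on the other arrays).

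**Figure D2:**
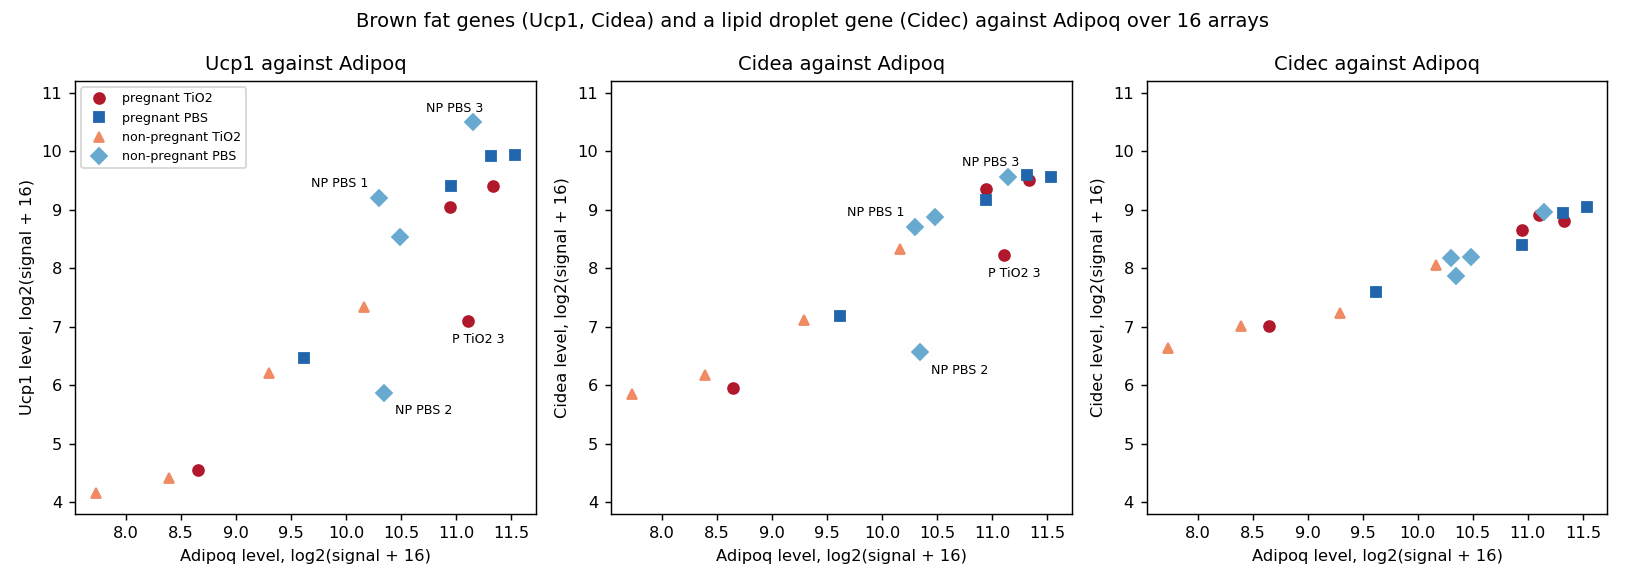
Levels of Ucp1, Cidea and Cidec (y axes, log2(signal + 16)) against Adipoq (x axes, same scale), 1 point per array, coloured by group; NP and P mark non-pregnant and pregnant arrays named in the text. Cidec follows Adipoq closely (r = 0.978), while for Ucp1 non-pregnant PBS replicate 2 (5.87) and pregnant TiO2 replicate 3 (7.10) lie far below arrays with the same Adipoq.

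Among tested genes outside the list, the 10 with the highest r with Ucp1 over the 16 arrays were Cox8b (0.966), Ppa1, Acadm (0.957), Acaa2 (0.950), Sucla2, Gpd1, Otop1 (0.943), Ech1, Cox7a1 (0.931) and Dgat2 (0.929). Cox8b and Cox7a1 are cytochrome c oxidase subunits of brown fat and muscle, Acadm, Acaa2 and Ech1 act in fatty acid oxidation, and Otop1 is a proton channel enriched in brown fat of mice. Cox8b was at 9.88, 7.76, 9.36 and 9.50 (pregnant TiO2), 9.997, 10.14, 8.68 and 9.90 (pregnant PBS), 8.38, 9.11, 8.88 and 7.96 (non-pregnant TiO2), and 9.95, 8.34, 10.23 and 9.21 (non-pregnant PBS). Non-pregnant PBS replicate 2, low in Ucp1 for its Adipoq, was the lowest of its group in Cox8b too. It lay at −0.95 from the line of Cox8b on Adipoq. This array was also the lowest of its group in fast skeletal muscle genes, with a mean of 9.77. The part of muscle in its Cox8b level was not tested.

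The 10 genes most like Adipoq were Amy1 (r = 0.970), Pck1 (0.944), Glycam1 (0.936), Dgat2 (0.932), Ephx2 (0.927), Chpt1, Acadl, Dnajc15, Prkar2b and Rbp7 (0.915). Pck1 makes the glycerol backbone for triglyceride in fat cells, and Dgat2 completes triglyceride synthesis. Glycam1 is no fat gene: it is a mucin of lymph node venules, which mammary gland also makes. Of these 10, 2 were in the wider fat lists described below, as were 5 of the 10 most like Ucp1.

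Other tissues in the samples were read from marker lists. Lung epithelium genes (Scgb1a1, Sftpc, Sftpa1, Sftpb and Ager) averaged between 13.11 and 13.25 log2 on all 16 arrays, so the organ matched its label. These levels lie near the top of the scale, where quantile normalization gives arrays the same values. Scgb1a1, for one, had a lowest value of 13.44 in every group. Their evenness therefore does not show that lung content was equal. Glycam1 moved with Adipoq: it was at 10.76, 4.15, 10.56 and 10.73 (pregnant TiO2), 10.63, 10.36, 9.45 and 10.70 (pregnant PBS), 4.14, 9.29, 8.06 and 4.60 (non-pregnant TiO2), and 9.38, 8.97, 10.57 and 8.91 (non-pregnant PBS). Its 3 arrays near the floor are the 3 arrays lowest in Adipoq. The 4 tested lymph node genes of 7 summed to 450 to 2811 (linear signal) in pregnant TiO2, 1052 to 2510 in pregnant PBS, 267 to 1089 in non-pregnant TiO2 and 919 to 2152 in non-pregnant PBS arrays. None of 6 mammary epithelium genes passed the filter.

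Fast skeletal muscle genes averaged 6.43 on pregnant TiO2 replicate 2 and at least 9.77 elsewhere, and squamous epithelium genes averaged 4.94 there and at least 8.79 elsewhere. Those values of 9.77 and 8.79 were on non-pregnant PBS replicate 2. Pregnant TiO2 replicate 2 was among the 3 lowest for 8 of the 10 fat genes. Non-pregnant TiO2 replicates 1 and 4, which carried muscle and squamous transcripts like the rest, were so for 9 each. Thymus genes (2 tested of 10) averaged 8.93 and 9.49 on non-pregnant PBS replicates 3 and 4 and between 5.51 and 6.40 elsewhere.

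**Figure D3:**
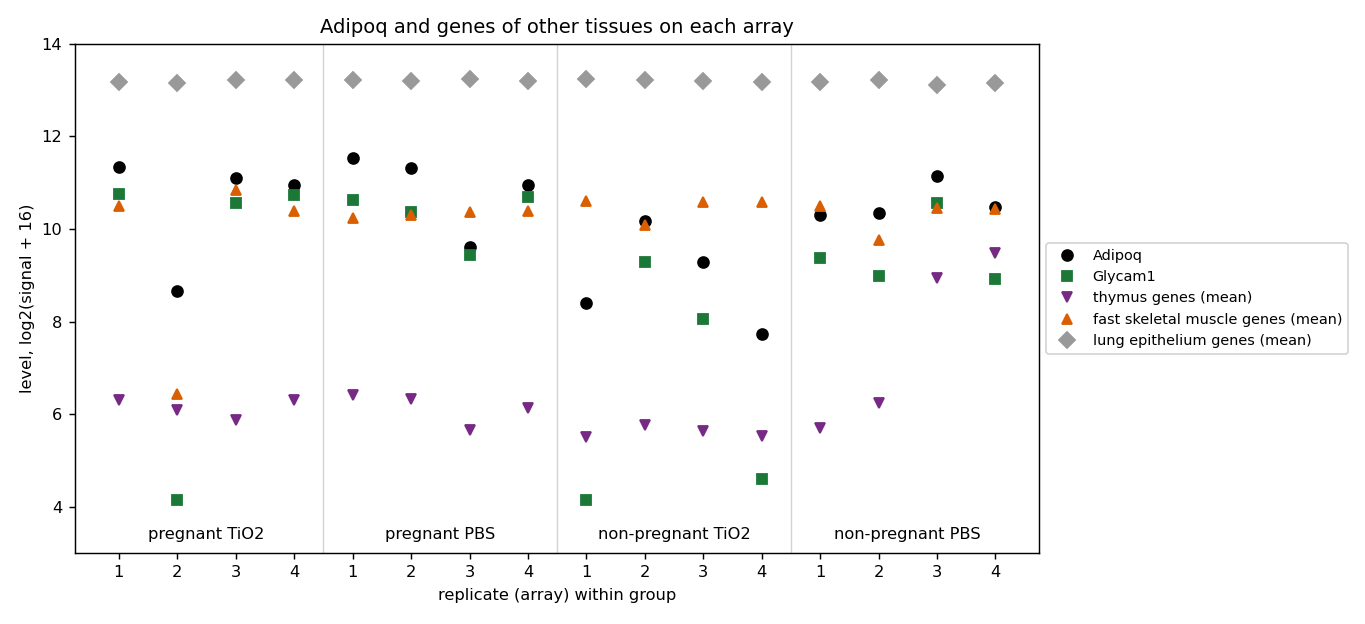
Adipoq, Glycam1 and the mean level of thymus, fast skeletal muscle and lung epithelium genes (y axis, log2(signal + 16)) on each of the 16 arrays, by group and replicate. Glycam1 is near the floor of 4 on the 3 arrays lowest in Adipoq, and thymus genes are high on non-pregnant PBS replicates 3 and 4. Muscle genes are lowest on pregnant TiO2 replicate 2 (6.43) and next lowest on non-pregnant PBS replicate 2 (9.77). Lung epithelium genes stay between 13.11 and 13.25, near the top of the scale.

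In non-pregnant mice the fat genes lay lower after TiO2 than after PBS, but none passed the test across all genes. The median difference (TiO2 minus PBS) of the 10 fat genes was −1.46 log2, against −0.02 over all 12369 genes, and all 10 were below 0, as were 54.5% of all genes. limma called 0 of the 10 fat genes at an adjusted p under 0.05 and 0 of all genes (0%). At an unadjusted p under 0.05 it called 7 of the 10 fat genes and 1223 of all 12369 genes. The differences were −3.00 ± 1.15 for Ucp1 and −1.99 ± 0.52 for Thrsp (log2 ± SE, 4 against 4 arrays), with limma's adjusted p = 0.413 and 0.275. They were −1.68 ± 0.59 for Adipoq, −1.63 ± 0.50 for Fabp4, −1.56 ± 0.82 for Cidea, −1.37 ± 0.41 for Retn and −1.07 ± 0.42 for Cidec. Car3 (−0.53 ± 0.28), Lipe (−0.48 ± 0.19) and Pnpla2 (−0.07 ± 0.18) differed less, and limma's adjusted p ran from 0.275 to 0.932 over the list.

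Markers of heart, lymph node and mesothelium also lay lower in this comparison, short of the threshold. Of the 9 heart muscle genes, all tested, 8 were below 0 (median −0.41) and limma called 0, with Tnnt2, a troponin, at −0.52 ± 0.10 (adjusted p = 0.146). Heart genes averaged 9.72 to 10.18 on non-pregnant TiO2 and 10.16 to 10.59 on non-pregnant PBS arrays, and 9.80 to 10.51 on pregnant TiO2 and 10.39 to 10.63 on pregnant PBS arrays. All 4 tested lymph node genes (median −0.67) and all 4 mesothelium genes (median −0.21) were below 0 too, with 0 called, while 9 of 10 tested fast skeletal muscle genes were above 0 (median 0.18). The part of heart, lymph node or mesothelium in the fat gene differences was not tested. The fit with Glycam1 given below cannot separate them, since Glycam1 followed Adipoq over the arrays.

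In this comparison 7 of the 10 fat genes differed by more than 1 log2, a size that 0.275% of all genes reached. Adipoq, Retn, Thrsp, Car3 and Lipe were lower on every non-pregnant TiO2 array than on any non-pregnant PBS array, as were 3.11% of all genes, and no fat gene was higher on all of them, against 2.09%. With Glycam1 as a covariate the fat gene median was −0.38, and without the 2 arrays with thymus transcripts it was −1.01. With Adipoq as a covariate the median of the other 9 was −0.086. Glycam1 and Adipoq followed the fat genes over these arrays, Glycam1 with an r of 0.936 with Adipoq. Fits with either as a covariate, here and below, therefore remove much of a fat gene difference whatever its source.

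In pregnant mice the fat genes differed between TiO2 and PBS by less than their spread between arrays. The median difference was −0.26 log2, against −0.00 over all genes, and limma called 0 of the fat genes and 0 of all genes (0%). At an unadjusted p under 0.05 it called 0 fat genes and 795 of all 12369 genes. All 10 fitted differences were below 0, as were 50.1% of all genes, between −1.40 ± 1.15 for Ucp1 and −0.00 ± 0.41 for Retn (limma's adjusted p 0.845 to 0.998). Ucp1 alone differed by more than 1 log2, as did 0.501% of all genes. No fat gene separated the groups, against 2.17% of all genes lower on every TiO2 array and 2.05% higher. The median was above 0 under 3 other settings, of which the fit with Glycam1 cannot test the direction. The median was 0.17 with 8 of 10 genes above 0 without pregnant TiO2 replicate 2, 0.063 with 6 above 0 with Glycam1 as a covariate, and 0.0025 with 5 above 0 under array weights, which count arrays far from the fit less. With Adipoq as a covariate it was −0.039, and with the array of conflicting labels counted as pregnant PBS it was −0.15. The median also moved by over 1.5 times without pregnant PBS replicate 1 (−0.13), 2 (−0.14) or 3 (−0.50), and without pregnant TiO2 replicate 1 (−0.46) or 3 (−0.39).

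The difference between these TiO2 responses, pregnant minus non-pregnant, was above 0 for 9 fat genes, as for 53.3% of all genes, with a median of 1.14 log2, against 0.02 over all genes. It exceeded 1 log2 for 5 fat genes and 1.02% of all genes. limma called 0 fat genes and 0 of all genes (0%), or 2 fat genes and 1352 of all 12369 genes at an unadjusted p under 0.05. It was 1.74 ± 0.74 for Thrsp, 1.59 ± 1.63 for Ucp1, 1.37 ± 0.58 for Retn, 1.33 ± 0.83 for Adipoq and −0.04 ± 0.26 for Pnpla2 (log2 ± SE; limma's adjusted p 0.419 to 0.964 over the 10 genes). The median was 0.69 without pregnant PBS replicate 3, 1.74 without pregnant TiO2 replicate 2 and 0.62 without the 2 arrays with thymus transcripts. It was 0.44 with Glycam1 and −0.050 with Adipoq as a covariate.

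After PBS, the fat genes differed between pregnant and non-pregnant lungs by less than their SD over the pregnant PBS arrays. The median difference was 0.21 log2 (0.01 over all genes) with 9 of 10 above 0, as were 51.8% of all genes, between 0.45 ± 0.82 for Cidea and −0.04 ± 0.50 for Fabp4. limma called 0 of them (adjusted p 0.650 to 0.990) while it called 1.04% of all genes (0.808% higher and 0.234% lower in pregnant mice). At an unadjusted p under 0.05 it called 0 of them and 1471 of all 12369 genes. No fat gene differed by more than 1 log2, as 0.259% of all genes did, and none separated the groups, against 3.46% of all genes higher and 2.3% lower in every pregnant sample. Counting the array with conflicting labels as pregnant PBS gave a median of −0.06, and leaving it out gave 0.04. Without pregnant PBS replicate 1, 2 or 3 the median was 0.06, 0.08 and 0.44, and without the 2 thymus arrays it was 0.33. It was 0.38 with values as deposited, 0.083 under array weights, −0.040 with Glycam1 and −0.0044 with Adipoq as a covariate.

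After TiO2 the fat genes lay higher in pregnant than in non-pregnant mice, again short of the threshold. This comparison uses the same 4 non-pregnant TiO2 arrays as the comparison of TiO2 with PBS in non-pregnant mice, so these comparisons are not independent. The median difference was 1.35 log2 (0.03 over all genes) and all 10 lay above 0, as did 55.6% of all genes. limma called 0 of them, against 1.88% of all genes, and at an unadjusted p under 0.05 it called 6 fat genes and 2527 of all 12369 genes. With Glycam1 as a covariate the median was 0.34, and with Adipoq it was −0.024, with 3 of the other 9 above 0. Thrsp (1.96 ± 0.52, adjusted p = 0.0657) and Retn (1.49 ± 0.41, adjusted p = 0.0727) came nearest by limma's test, and Ucp1 had a difference of 2.00 ± 1.15 (adjusted p = 0.344) and Adipoq of 1.61 ± 0.59 (adjusted p = 0.147).

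Here 7 fat genes differed by more than 1 log2, as did 0.736% of all genes, yet none separated the groups, against 9.56% of all genes higher and 6.18% lower on every pregnant array. Without pregnant TiO2 replicate 2 limma called Adipoq (2.23 ± 0.49, adjusted p = 0.0330), Fabp4, Retn, Cidec, Car3 and Thrsp (2.40 ± 0.49, adjusted p = 0.0249), beside 2.22% of all genes, and the median was 1.86. Without non-pregnant TiO2 replicate 2 limma called Thrsp alone of the 10 (adjusted p = 0.04999), beside 0.784% of all genes. Array weights called 6 fat genes, beside 12.2% of all genes, and Thrsp alone was called with values as deposited (0.17% of all genes) and with an intensity trend (2.47%). Of the heart muscle genes 8 of 9 lay above 0 in this comparison (median 0.27), and limma called Tnnt2 and Tnni3 higher, as it did the lymph node gene Cr2. Fat gene calls under other settings were 0 in the other 4 comparisons.

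**Figure D4:**
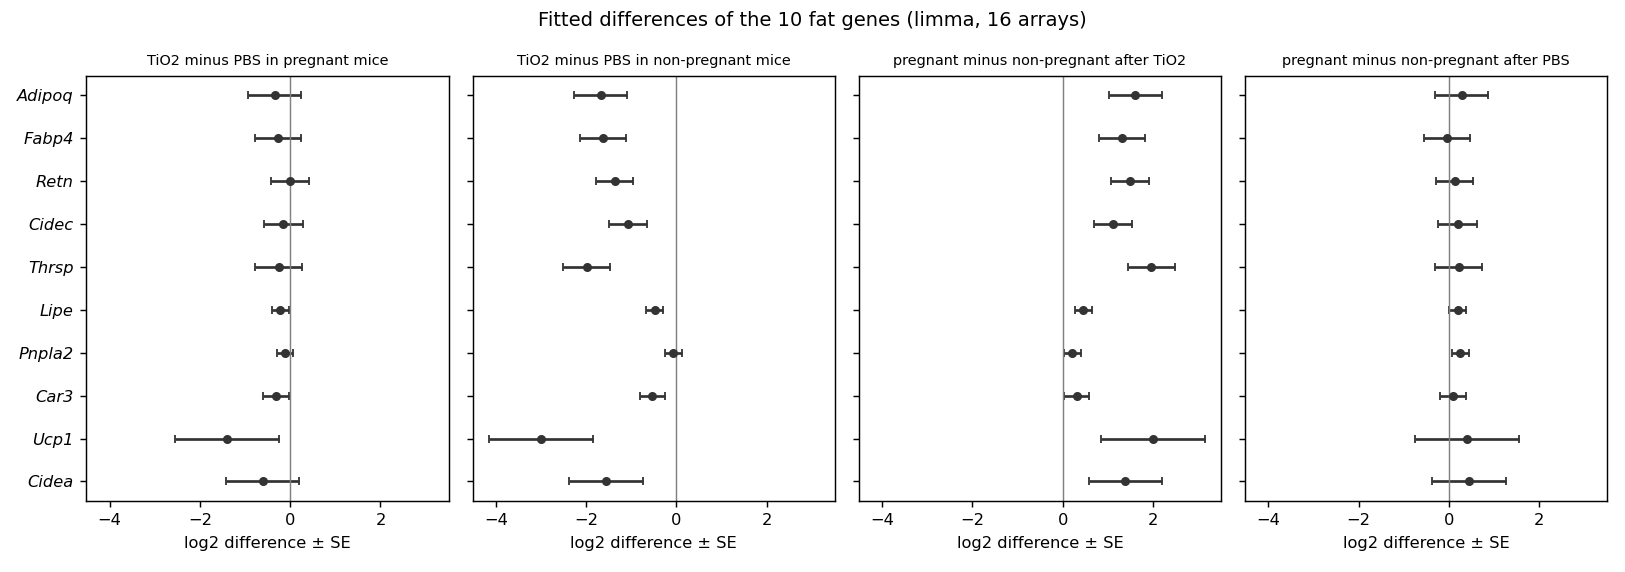
Fitted log2 difference ± SE (x axes) of each fat gene in 4 comparisons, TiO2 minus PBS in pregnant and non-pregnant mice and pregnant minus non-pregnant after TiO2 and after PBS (limma over 16 arrays, 4 per group). In non-pregnant mice the differences run between −3.00 (Ucp1) and −0.07 (Pnpla2), in pregnant mice between −1.40 and −0.00, and none passed the test over all genes.

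Other genes of fat tissue were taken from 7 lists with 61 genes outside the 10, of which 50 were tested. In non-pregnant mice 43 of the 50 lay below 0 after TiO2 (median −0.43) and in pregnant mice 33 (median −0.07), and limma called 0 in either. The difference of the TiO2 responses lay above 0 for 38 (median 0.31), and the difference pregnant minus non-pregnant after PBS for 30 (median 0.03), with 0 called. After TiO2, 39 lay higher in pregnant mice (median 0.33), and limma called 3 higher and 1 lower, beside 1.37% and 0.509% of all genes.

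The genes called higher in pregnant mice after TiO2 were Mgll, Slc25a1 and Pcx. Mgll, which cleaves monoglycerides in the last step of lipolysis, was at 11.10, 11.07, 11.31 and 11.29 on pregnant TiO2 and at 10.43, 10.62, 10.67 and 10.73 on non-pregnant TiO2 arrays (0.58 ± 0.11, limma's adjusted p = 0.0239). Slc25a1, the mitochondrial citrate carrier that feeds fatty acid synthesis, was at 10.51, 9.96, 10.32 and 9.93 on pregnant TiO2 and at 9.35, 9.68, 9.44 and 9.43 on non-pregnant TiO2 arrays (0.71 ± 0.14, adjusted p = 0.0222). The groups do not overlap for either gene, nor for Pcx below, and 9.56% of all genes were likewise higher on every pregnant array. Since limma's calls on the same arrays picked these genes, the separation adds no support. Pregnant TiO2 replicate 2, low in Adipoq, was the lowest of its group for Mgll, at 11.07 with the next array at 11.10. It was also the lowest for Pcx, at 8.88. For Slc25a1 it was at 9.96, with another array of the group lower, at 9.93. Pcx, pyruvate carboxylase, was at 9.40, 8.88, 9.14 and 9.08 on pregnant TiO2 and at 8.46, 8.64, 8.50 and 8.58 on non-pregnant TiO2 arrays (0.58 ± 0.13, adjusted p = 0.0372).

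Klf15, a transcription factor of fat, muscle and liver that glucocorticoids induce, was lower, at 8.43, 8.58, 8.63 and 8.96 on pregnant TiO2 and at 9.76, 9.55, 9.52 and 9.79 on non-pregnant TiO2 arrays (−1.002 ± 0.162, limma's adjusted p = 0.00942). The number of called genes among the 50 depended on single arrays. It was 8 without pregnant TiO2 replicate 2, 2 without pregnant TiO2 replicate 4 or non-pregnant TiO2 replicate 2, and 1 (Klf15) without pregnant TiO2 replicate 1 or 3 or non-pregnant TiO2 replicate 1 or 3. With Adipoq as a covariate it was 0. Over all 12369 genes, calls in this comparison also depended on single arrays, from 52 to 382 when 1 array was left out. They were 2.22% of all genes without pregnant TiO2 replicate 2 and 0.784% without non-pregnant TiO2 replicate 2.

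By function, the 16 lipid synthesis genes were all tested. In non-pregnant mice 15 of 16 lay lower after TiO2 (median −0.66), in pregnant mice 10 (median −0.04), and the difference of the responses was above 0 for all 16 (median 0.62), with 0 called by limma in each. Pck1 (−1.62 ± 0.76), Gpd1 (−1.61 ± 0.50), which makes glycerol phosphate, and Dgat2 (−0.88 ± 0.31) lay beyond the median of −0.66 in non-pregnant mice. These genes were picked after their values were seen. Of the white and general fat cell genes, 6 of 11 were tested and 5 lay below 0 in non-pregnant mice (median −0.35). Ces1d, a carboxylesterase that lung also expresses, differed by 0.14 ± 0.09 there and Slc7a10, an amino acid carrier, by −0.18 ± 0.14. Plin4, a lipid droplet coat protein, differed by −0.56 ± 0.29 and Slc2a4, the insulin-responsive glucose carrier, by −0.53 ± 0.29.

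Of the 11 brown fat selective genes 7 were tested, and 6 lay below 0 after TiO2 in non-pregnant mice (median −0.53) and 5 in pregnant mice (median −0.21). Otop1 differed by −0.93 ± 0.40 and Slc27a2, a very long chain acyl-CoA synthetase, by −0.53 ± 0.37 in non-pregnant mice. Acot11, a thioesterase, differed by −0.33 ± 0.16, while Prdm16, a determinant of brown fat fate that lung expresses as well, differed by 0.20 ± 0.16. Of 8 brown fat genes shared with muscle 7 were tested, all below 0 in non-pregnant mice (median −0.19), among them Cox8b (−0.85 ± 0.48), Cox7a1 (−0.65 ± 0.25), Pdk4 (−0.19 ± 0.40), a kinase that restrains glucose oxidation, and Kcnk3 (−0.15 ± 0.09), a potassium channel.

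The 4 tested fatty acid uptake genes of 5 had a median of −0.10 in non-pregnant mice. Cd36, a fatty acid receptor of macrophages and endothelium, differed by 0.11 ± 0.09, lipoprotein lipase, Lpl, by −0.17 ± 0.14, its endothelial anchor Gpihbp1 by −0.03 ± 0.08 and the fatty acid transporter Slc27a1 by −0.54 ± 0.26. The 6 fat cell transcription factors had a median of −0.02, with Cebpa, which lung epithelium and myeloid cells also use, at −0.04 ± 0.10, Pparg at −0.08 ± 0.21, Klf15 at 0.34 ± 0.16 and Mlxipl, a glucose-sensing regulator of lipid synthesis, at −0.65 ± 0.21. The 4 lipolysis partner genes all lay below 0, with a median of −0.17 and Mgll at −0.45 ± 0.11. limma called 0 of these genes in non-pregnant mice. Plin1, Cfd, Adrb3, Acsl1, Gk and Cpt1b, other well-known genes of these lists, had no probe set with a single symbol and were not used here. Lep and Aqp7 of the white and general fat cell genes had a named probe set but did not pass the filter. The same held for Ebf2, Zic1 and Lhx8 of the brown fat selective genes. These genes were not above their array's median on at least 4 arrays and were not tested.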

How the data were processed

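Total lung RNA of 16 samples was measured on 1-colour Affymetrix whole-genome mouse arrays, and the authors deposited linear intensity values of 45101 probe sets. GCOS, MAS5 and RMA are named per the submitters' processing notes, but the program behind the deposited intensity values and its version were not given there. Arrays had not been brought to one scale: trimmed means (without the outer 2% on either side) lay between 137 and 263 and medians between 32.0 and 56.5. The number of arrays limits the precision.

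Without the 64 control probe sets, the values were quantile-normalized and log2(value + 16) was taken, which understates changes of weak signals. Probe sets above their array's median on at least 4 arrays were kept (23995, of which 21248 had a single symbol). Names came from the platform annotation, brought up to date by Entrez identifier with a RefSeq table of GRCm38.p6 (34945 probe sets had 1 symbol, of which 34741 matched, 932 had several and 9160 had none listed). The brightest probe set on average stood for each gene, giving 12369 genes, and other bright probe sets of Car3, Fabp4 and Thrsp followed the chosen one over the arrays with r = 0.970, 0.969 and 0.980. limma 3.58.1 in R 4.3.3 fitted 4 group means (12 residual degrees of freedom) and 5 contrasts, with Benjamini-Hochberg adjustment over all genes and a threshold of 0.05, and was tested on simulated data. Groups came from the labels; the array with conflicting labels was placed in non-pregnant PBS, which the design's 4 samples per group require.

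The fat genes, the gene lists and the tests were chosen with earlier results of these data known. All 10 fat genes were named, of the wider lists the called genes or else those with the highest mean, and the 10 genes most like Adipoq and Ucp1. Pck1, Gpd1, Dgat2, Cebpa, Pparg, Mlxipl, Tnnt2, Tnni3 and Cr2 were added after their values were seen. Alternatives changed the scaling, the pseudocount (1 and 64), the filter, the probe set rule, the arrays fitted, the spread estimate, covariates and each array in turn.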

Additional observations from a re-analysis of the deposited data

Results flagged for a closer look

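Of 40 sets of 4 arrays (10 fat genes in 4 groups), 6 had 1 array far from the other 3. Its gap to the nearest of them then took up most of the group's range. For a single set chance gives this about 1 time in 20. The fat genes rise and fall together over the same arrays, so the 40 sets are not independent and their count cannot be set against that share. All 6 sets point to pregnant TiO2 replicate 2 or pregnant PBS replicate 3. Pregnant TiO2 replicate 2 stood apart for 4 genes. Adipoq was at 8.65 there and between 10.94 and 11.33 on the other 3 arrays of the group, Fabp4 at 10.62 (others 12.65 to 12.88), Cidec at 7.01 (others 8.65 to 8.90) and Car3 at 11.29 (others 12.78 to 12.92). The same array had the lowest fast skeletal muscle and squamous epithelium levels of the 16 and had Glycam1 near the floor. Their bearing on its fat gene levels was not tested.

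Pregnant PBS replicate 3 stood apart for Ucp1, at 6.46 with the others between 9.41 and 9.93, and for Thrsp, at 10.02 with the others between 11.50 and 11.60. Its skeletal muscle genes averaged 10.38, with the others between 10.23 and 10.39. It was the lowest of its group in Glycam1, at 9.45 with the others between 10.36 and 10.70, and in the summed signal of lymph node genes, at 1052 with the others between 2173 and 2510. By limma's test of the difference between TiO2 responses, no fat gene was called (adjusted p 0.419 to 0.964). This does not show that the responses were alike: the median difference was 1.14 log2, with 9 of 10 genes above 0.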

How the results depend on the processing

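The median difference of the fat genes kept its direction in non-pregnant mice (TiO2 minus PBS; main value −1.46) and after TiO2 (pregnant minus non-pregnant; 1.35) under all settings but Adipoq as a covariate in the second (−0.024); with Adipoq it was −0.086 in the first and −0.050 for the difference of the TiO2 responses, and with Glycam1 it was −0.38 in the first and 0.34 in the second. Leaving out 1 array at a time gave medians of −1.87 to −1.11 (TiO2 minus PBS, non-pregnant), −0.50 to 0.17 (the same, pregnant), 0.69 to 1.74 (difference of these), 0.04 to 0.44 (pregnant minus non-pregnant, PBS) and 1.01 to 1.86 (the same, TiO2). Fat genes called in pregnant minus non-pregnant after TiO2 numbered 0 in the main setting, 1 with values as deposited (Thrsp), 6 with array weights, 1 with an intensity trend (Thrsp) and 0 to 6 leaving out 1 array; the wider lists had 4, and 1, 17, 1 (Glycam1 as a covariate), 0 (Adipoq as a covariate) and 1 to 8. Calls among all genes in that comparison ran from 21 (values as deposited) to 1505 (array weights), against 233, and after PBS from 7 (array with conflicting labels counted as pregnant) to 249, against 129. One wider gene, Lpin1, was called after PBS without the thymus arrays (1 against 0). Values as deposited moved the median of all genes by 0.18 for TiO2 in non-pregnant mice, by −0.27 for the difference of responses, by 0.16 for pregnancy after PBS and by −0.11 for pregnancy after TiO2, and the fat gene median relative to that of all genes was then −1.47, 1.12, 0.21 and 1.34. The correlation of Ucp1 with Adipoq was 0.843 to 0.935 over 23 alternatives (permutation p at most 0.00024). Of 1435 single-gene values under alternatives, 1395 moved by less than the spread between arrays and 40 by more; the cause was not tested. No paired analysis was possible because the labels give no replicate numbers. Fitting only the arrays compared gives no value for the difference of responses, which needs all 4 groups. Glycam1 and Adipoq followed the fat genes over these arrays, so fits with either as a covariate remove much of a difference whatever its source.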

Other observations

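Of the 14 tested brown fat genes outside the 10, selective or shared with muscle, 10 lay below their line on Adipoq on non-pregnant PBS replicate 2 and 10 on pregnant TiO2 replicate 3, the arrays low in Ucp1 for their Adipoq. On the other 14 arrays between 4 and 11 of them lay below it, so the count does not set these arrays apart. Their median distance from the line was −0.41 on non-pregnant PBS replicate 2, −0.09 on pregnant TiO2 replicate 3 and −0.12 to 0.30 elsewhere. On non-pregnant PBS replicate 2 the distances ran between −1.06 for Elovl3, a fatty acid elongase induced in brown fat by cold in mice, and 0.49 for Prdm16. On pregnant TiO2 replicate 3 they ran between −0.49 for Otop1 and 0.32 for Pdk4. In the pair of arrays that differed by −3.33 in Ucp1 at nearly equal Adipoq, Cox8b was at 8.34 on non-pregnant PBS replicate 2 and at 9.95 on replicate 1. Fast skeletal muscle genes, too, were lower on replicate 2 than on replicate 1, and the part of muscle in the Cox8b difference was not tested. The brown fat genes and the arrays named here were picked after their values were seen.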
